A study of Mus musculus with 24 samples.

Results

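Genes of the 3 kinds of circulating lymphocyte, B cells, T cells and natural killer (NK) cells, were followed through sorted mouse hindlimb muscle before and 1 day after injury. The set was a list of 37 gene symbols looked up in a table of 52997 symbols, and all 37 were found: 10 of the B lineage, 17 of the T lineage and 10 of NK and other cytotoxic cells. They were listed by name, with earlier results of these data known. RNA was counted in CD45+ cells (hematopoietic), CD31+ cells (endothelial), mesenchymal stromal cells (MSC, sorted as CD45-CD31-Sca1+PDGFRa+) and satellite cells, the stem cells of muscle (MuSC, sorted as CD45-CD31-Sca1-Vcam1+). Each population came from injured muscle taken 1 day after cardiotoxin, a snake venom toxin that kills muscle fibers, and from uninjured muscle. All mice were C57BL/6 and 8 weeks old. The 24 libraries, 3 for each of 8 groups, were made from 1000 sorted cells each. The submitters call them biological replicates and do not say whether same-numbered libraries share a mouse, and no vehicle-injected muscle is among the groups.

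B cells read antigen through surface immunoglobulin, whose heavy chain (Ighm for IgM, Ighd for IgD) sits in the membrane with the signalling chains Cd79a and Cd79b. T cells read peptides through a receptor held by the CD3 chains and Cd247 and signalling through the kinases Lck and Zap70. NK cells have no rearranged receptor. They balance activating and inhibitory surface receptors such as Klrk1 and Klrd1 and kill with perforin (Prf1) and granzymes (Gzma), tools they share with cytotoxic T cells. In resting muscle lymphocytes are a minor part of the leukocytes, and the first cells to enter after a toxin injury are neutrophils and monocytes.

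The regulatory stretch of 1 gene of each class, and of the 1 tested member that did not fall, is printed here with the transcription factor motifs usually named for these lineages. Each line holds 250 bases before and 50 after the gene's start, from RefSeq on GRCm38.p6, 5′ to 3′ on the gene's own strand. Capitals mark motif matches on either strand: AGGAAGT for ETS factors, TGTGGTT for RUNX factors and CAGGTG for E-box factors.
Cd79a (chr7:24897247-24897546, plus strand): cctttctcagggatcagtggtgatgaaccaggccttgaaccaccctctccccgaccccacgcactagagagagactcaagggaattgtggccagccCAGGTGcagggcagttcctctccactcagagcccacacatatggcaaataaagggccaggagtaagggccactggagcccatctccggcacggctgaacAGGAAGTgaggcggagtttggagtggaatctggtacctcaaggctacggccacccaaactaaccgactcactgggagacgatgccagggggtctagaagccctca
Cd3e (chr9:45009562-45009861, minus strand): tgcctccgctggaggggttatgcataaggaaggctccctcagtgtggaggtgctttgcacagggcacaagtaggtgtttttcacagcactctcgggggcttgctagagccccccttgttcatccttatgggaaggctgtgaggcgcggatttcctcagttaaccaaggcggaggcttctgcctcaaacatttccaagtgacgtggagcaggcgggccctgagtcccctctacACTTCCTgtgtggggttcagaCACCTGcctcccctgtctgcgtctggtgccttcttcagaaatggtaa
Gzma (chr13:113100932-113101231, minus strand): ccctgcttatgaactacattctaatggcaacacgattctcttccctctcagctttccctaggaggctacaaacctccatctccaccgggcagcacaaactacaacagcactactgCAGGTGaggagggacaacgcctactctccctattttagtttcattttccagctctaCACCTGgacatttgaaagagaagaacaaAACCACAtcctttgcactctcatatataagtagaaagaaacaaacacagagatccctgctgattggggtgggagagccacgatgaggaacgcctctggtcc
Il7r (chr15:9529827-9530126, minus strand): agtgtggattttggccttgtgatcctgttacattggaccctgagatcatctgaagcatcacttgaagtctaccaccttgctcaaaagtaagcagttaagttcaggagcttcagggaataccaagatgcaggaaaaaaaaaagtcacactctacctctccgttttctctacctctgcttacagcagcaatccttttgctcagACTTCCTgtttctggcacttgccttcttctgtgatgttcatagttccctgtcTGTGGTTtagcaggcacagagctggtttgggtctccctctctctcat
Of the 37 members, 27 had at least 1 promoter entry (5 B, 14 T and 8 NK genes). The ETS letters stood in 7 of 14 T genes, 1 of 5 B genes and 2 of 8 NK genes, and in 9.35% of all 32851 mouse promoters of this length. The RUNX letters stood in 3 of 14 T genes, 3 of 8 NK genes and 0 of 5 B genes, against 5.27% of all promoters. The E-box letters stood in 4 of 5 B genes, 8 of 14 T genes and 3 of 8 NK genes, against 20.2% of all promoters. Some genes have several entries, so a gene had more than 1 chance to hold a match. The EBF motif (TCCC and GGGA with any 2 bases between them) was found in the B gene Cd22 alone, AGGTGTGA (T-box) in the NK gene Nkg7 alone, and ATTTGCAT (the octamer) in none of the 27. Their shares of all promoters were 0.904%, 1.28% and 1.74%. The promoter of Il7r, which did not fall, held both an ETS and a RUNX match. A promoter entry of Lck held both as well, and Txk held them in separate entries. Lck and Txk fell.

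Libraries held 2.3 to 7.65 megacounts (units of 1000000 counts), and those of CD45+ cells 4.68 to 5.08 in injured and 3.38 to 4.48 in uninjured muscle. Levels are CPM, counts scaled to a library of 1000000 with TMM-adjusted library sizes. A count of 0 allows up to 3 counts, which is 0.698 to 0.755 CPM in an injured CD45+ library and 0.709 to 0.865 CPM in an uninjured one, for counting error only. The gate held up against 10 genes of all leukocytes, whose summed level was 14209 ± 700 CPM in injured and 11378 ± 633 CPM in uninjured CD45+ cells (SD, n = 3 each) and 42.9 to 179 CPM in CD31+ libraries. The uninjured CD45+ libraries were not alike, by marker genes singled out after their values were seen. Replicate 1 carried red cell RNA (Hbb-bs 337 CPM, against 0 and 0.285 in replicates 2 and 3), replicate 2 carried RNA of neutrophil precursors (Ngp 159 CPM, against 0.236 and 2.28 in replicates 1 and 3), and replicate 3 had the fewest resident macrophage counts (5605 CPM over 11 genes, against 13763 and 12282). Neither Hbb-bs nor Ngp passed 0.252 CPM in an injured library. Their part in the lymphocyte values was not tested.

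Lymphocyte RNA was far lower in the CD45+ cells of injured muscle. Of the 35 members that passed the filter on low counts, 34 fell 1 day after cardiotoxin, 0 rose and 1, Il7r, did not pass (edgeR quasi-likelihood test, Benjamini-Hochberg adjusted p below 0.05 over 16263 genes). Over all genes tested, 18.5% fell and 15.9% rose. The members were listed with earlier results known, and most passed the filter through uninjured CD45+ cells, where they are high. The shares of all genes are therefore for scale only. The fall took in 10 of 10 B genes, 15 of 16 T genes and 9 of 9 NK genes, and the median log2 fold change (injured minus uninjured) was -6.48, -3.86 and -4.48 for the 3 classes, against -0.12 for all genes tested. Foxp3 and Eomes were too low to be tested. Counting all 37 members, 35 had every injured library below every uninjured one, a pattern of 22.9% of all genes tested. Of these, Eomes was apart only by the scaling of libraries. It had 1 count in uninjured replicate 3 (0.285 CPM) and 1 count each in injured replicates 1 and 2 (0.252 and 0.244 CPM). By DESeq2 28 of the 35 fell and 0 rose, and no member was higher at an unadjusted p below 0.05 in the edgeR fit. Because each library holds a fixed number of sorted cells, fewer lymphocytes among the CD45+ cells and less RNA per lymphocyte cannot be told apart.

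**Figure D1:**
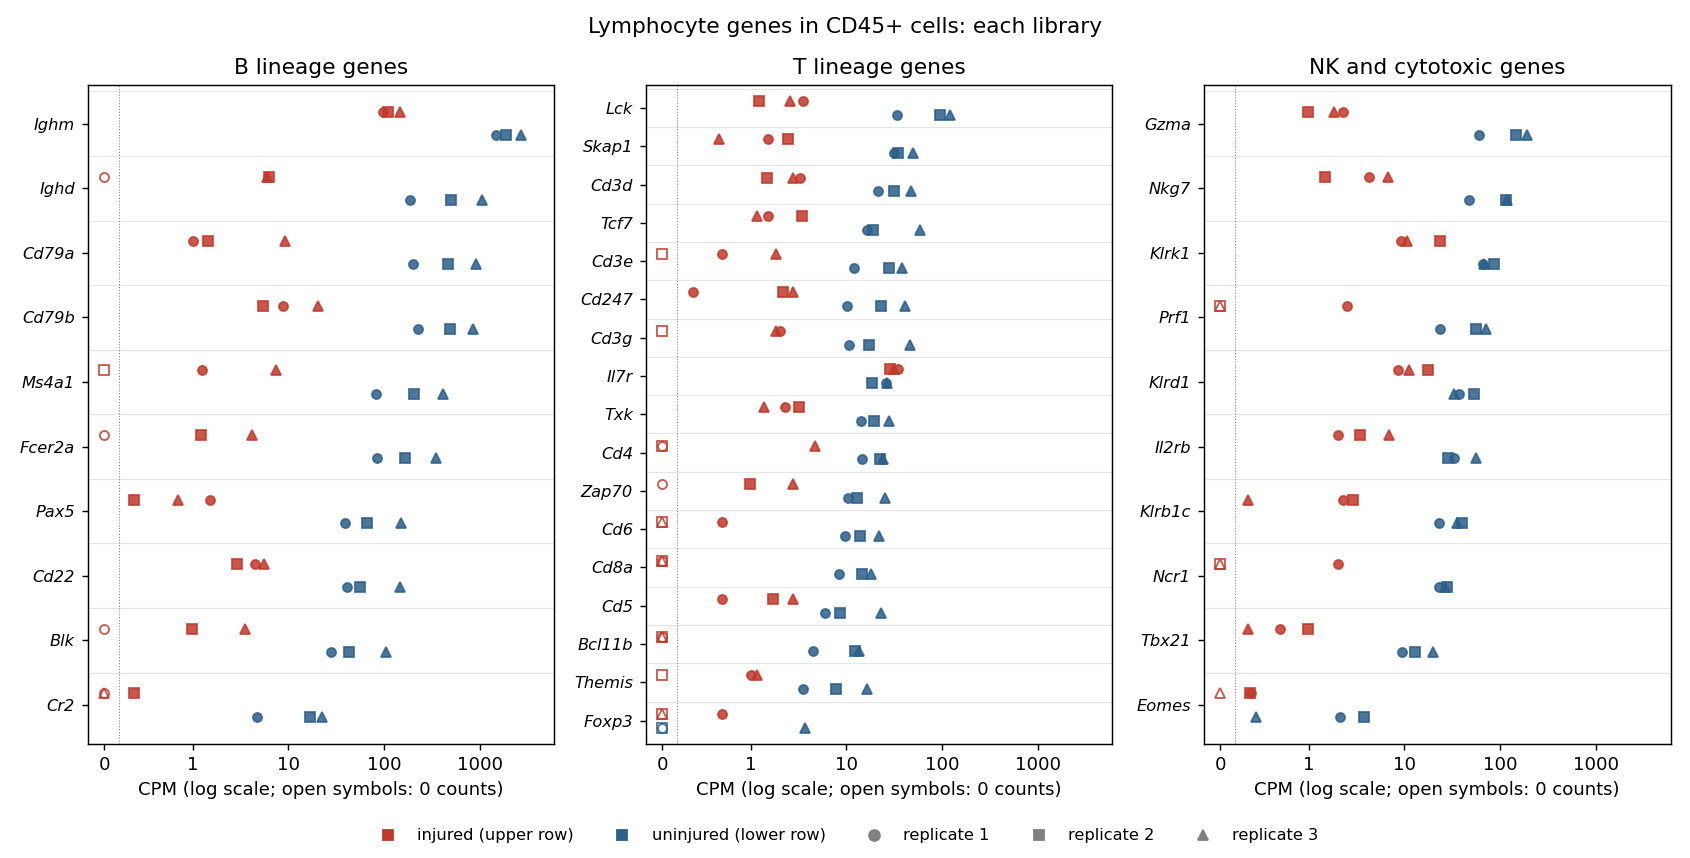
CPM of all 37 members in each CD45+ library on a log axis, injured in the upper and uninjured in the lower row of each gene, with the symbol giving the replicate and open symbols at the left edge standing for 0 counts. Injured and uninjured symbols are apart for every gene but Foxp3, for Eomes only by the scaling of libraries with 1 count each. Il7r is the gene whose injured libraries are the higher ones.

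The B cell receptor was among the most abundant lymphocyte machinery of resting muscle. Per kb of exon, Ighm had 1071 CPM, Cd79b 365, Cd79a 360 and Ighd 304 in uninjured CD45+ cells, the 4 highest of the 37 members on that scale. The next were the granzyme gene Gzma with 133 and Nkg7 with 102 CPM per kb, and the highest T gene was Lck with 28.6. Cd79a, a signalling chain of the receptor (ENSMUSG00000003379, chr7:24897381-24902197, plus strand), had 1.01, 1.46 and 9.30 CPM in injured and 198, 464 and 911 CPM in uninjured libraries. Its partner Cd79b had 8.81, 5.37 and 20.2 CPM in injured and 224, 487 and 857 CPM in uninjured libraries. In both genes replicate 3 was the highest library of its group, and the groups lay far apart. The fitted log2 fold change was -7.02 for Cd79a (SE 0.72, edgeR adjusted p = 9.61e-07) and -5.50 for Cd79b (SE 0.70, adjusted p = 9.76e-05).

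The heavy chain genes differed in how much was left. Ighm had 98.2, 109 and 146 CPM in injured and 1478, 1880 and 2701 CPM in uninjured libraries, so that 5.82% of its mean level remained. Ighd had 0, 6.35 and 6.05 CPM in injured and 187, 501 and 1042 CPM in uninjured libraries, which left 0.716%. Both are read out from 1 locus on chromosome 12 in mature B cells. The log2 fold change was -4.10 for Ighm (SE 0.69, adjusted p = 1.96e-04) and -7.10 for Ighd (SE 0.74, adjusted p = 6.55e-06), and their 95% intervals, -5.56 to -2.64 and -8.65 to -5.54, overlapped narrowly. Ighm made up 71.9 to 85.2% of the summed B level in injured libraries and 40.4 to 62.5% in uninjured ones.

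Surface coreceptors and the B cell transcription factor fell as well. Ms4a1, which encodes CD20, had 1.26, 0 and 7.44 CPM in injured and 81.8, 207 and 408 CPM in uninjured libraries. Fcer2a, the low-affinity IgE receptor CD23, had 0, 1.22 and 4.19 CPM in injured and 83.5, 166 and 345 CPM in uninjured libraries. Both had their highest values in replicate 3 of each group. Cr2, the complement receptor that lowers the threshold of the B cell receptor, had 1 count in all injured libraries and 156 in uninjured ones (4.73, 16.7 and 22.2 CPM), a ratio of 172 (uninjured over injured, counts over scaled depth) with an exact 95% counting interval of 30.5 to 6844. Pax5, the factor that commits cells to the B lineage, had 1.51, 0.244 and 0.698 CPM in injured and 39.0, 66.0 and 151 CPM in uninjured libraries, with a log2 fold change of -6.67 (SE 0.66, adjusted p = 9.73e-08). Pax5 gave the smallest adjusted p of the 37 members. Blk, a Src family kinase of B cells, had 0, 0.977 and 3.49 CPM in injured and 27.7, 42.7 and 105 CPM in uninjured libraries. Cd22, an inhibitory receptor of B cells, had 4.53, 2.93 and 5.58 CPM in injured and 41.1, 55.9 and 147 CPM in uninjured libraries, and 5.33% of its level remained. With Ighm it was the B gene with the most left, and its injured libraries, unlike those of Ms4a1 and Fcer2a, lay within a factor of 1.91 of each other.

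The T cell receptor complex fell with all its chains. Cd3e had 0.504, 0 and 1.86 CPM in injured and 12.1, 28.0 and 38.5 CPM in uninjured libraries, a log2 fold change of -4.99 (SE 0.79, adjusted p = 6.34e-05). Cd3d had 3.27, 1.46 and 2.79 CPM in injured and 21.3, 31.4 and 46.8 CPM in uninjured libraries, and Cd3g had 2.01, 0 and 1.86 CPM against 10.6, 17.3 and 45.6 CPM. The call for Cd3g was lost with DESeq2 (adjusted p = 0.428). Cd247, the zeta chain, had 0.252, 2.20 and 2.79 CPM in injured and 10.2, 22.8 and 41.4 CPM in uninjured libraries. Among uninjured libraries every chain was lowest in replicate 1 and highest in replicate 3, and no injured library reached an uninjured one.

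The coreceptors of helper and of cytotoxic T cells were both near the floor after injury. Cd4, the helper coreceptor, had 0, 0 and 4.65 CPM in injured and 14.4, 22.2 and 24 CPM in uninjured libraries, with all of its injured counts in replicate 3. Cd8a, the cytotoxic coreceptor, had 0 counts in all 3 injured libraries and 8.28, 14.4 and 18 CPM in uninjured ones, which put it at least 55.9-fold lower (3 counts over the injured group as the limit). Both calls were lost with DESeq2, at adjusted p = 0.120 for Cd4 and 0.288 for Cd8a. Cd4 is also made by some mouse dendritic cells. Cd5, an inhibitory receptor of T cells and some B cells, had 0.504, 1.71 and 2.79 CPM in injured and 5.91, 8.65 and 23.1 CPM in uninjured libraries, and Cd6, its relative, had 2 counts in injured and 165 in uninjured libraries (9.69, 13.8 and 21.7 CPM), an uninjured to injured ratio of 91.1 with a counting interval of 24.8 to 758. The call for Cd5 was lost without uninjured replicate 3 (adjusted p = 0.0977) and without injured replicate 1 (adjusted p = 0.0547).

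Kinases and adaptors behind the receptor followed it. Lck, the kinase that starts the signal, had 3.52, 1.22 and 2.56 CPM in injured and 34.1, 95.1 and 122 CPM in uninjured libraries, a log2 fold change of -5.09 (SE 0.65, adjusted p = 2.94e-06) and the smallest adjusted p of the T genes. Zap70, the kinase that binds the phosphorylated CD3 and zeta chains, had 0, 0.977 and 2.79 CPM in injured and 10.4, 13 and 25.1 CPM in uninjured libraries. Txk, a Tec family kinase of T and NK cells, had 2.27, 3.17 and 1.4 CPM in injured and 14.2, 19.6 and 27.7 CPM in uninjured libraries. The adjusted p of Txk reached 0.0586 over the alternative fits, so its call did not hold in all of them. These kinases kept between 2.91% (Lck) and 11.1% (Txk) of their mean level. Skap1, an adaptor linking the receptor to integrins, had 1.51, 2.44 and 0.465 CPM in injured and 31.7, 34.3 and 49.9 CPM in uninjured libraries. Themis, needed for T cell selection in the thymus, had 1.01, 0 and 1.16 CPM in injured and 3.55, 7.78 and 16.5 CPM in uninjured libraries, and its call was lost without uninjured replicate 3 (adjusted p = 0.0638) and without injured replicate 2 (adjusted p = 0.0509). Without both CD45+ libraries numbered 3, a setting added after the data were seen, 12 of the T genes fell.

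Among the transcription factors, Bcl11b, which holds T cell identity, had 0 counts in all 3 injured libraries and 4.49, 12.4 and 13.7 CPM in uninjured ones, at least 42.0-fold lower. Tcf7, the factor TCF1 of naive and memory T cells, had 1.51, 3.42 and 1.16 CPM in injured and 16.6, 18.7 and 59.0 CPM in uninjured libraries. Foxp3, the factor of regulatory T cells, had 2 counts in injured replicate 1 and 13 counts in uninjured replicate 3, with 0 in the other 4 libraries, an uninjured to injured ratio of 7.17 with a counting interval of 1.62 to 65.5, and was not tested. The groups overlapped for Foxp3, and it shares 31.5% of its exon bases with other genes.

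Il7r, the receptor chain through which IL-7 keeps resting T cells and innate lymphoid cells alive (ENSMUSG00000003882, chr15:9505788-9530176, minus strand), was the exception. It had 34.5, 28.8 and 31.4 CPM in injured and 25.8, 18.4 and 26.2 CPM in uninjured libraries. All 3 injured libraries were above all 3 uninjured ones, a pattern of 20.1% of genes tested, but the log2 fold change of 0.43 (SE 0.48, 95% interval -0.57 to 1.42) did not pass (adjusted p = 0.535, and 0.172 to 0.770 over the alternatives). The interval leaves out a fall of the size seen in any other tested T gene, whose smallest was -2.88 for Cd5. After injury Il7r alone made up 54.4 to 66.5% of the summed T level, against 4.35 to 11.1% in uninjured libraries. Of 6 tested genes of a list for type 2 innate lymphoid cells, 4 fell. Among them, Gata3 had 2.03 ± 1.84 CPM in injured and 18.9 ± 5.94 CPM in uninjured cells (SD, n = 3 each, edgeR adjusted p = 1.42e-04). Areg, a growth factor of these and other cells, rose, with 19.4, 9.28 and 5.82 CPM in injured and 0, 0.576 and 0 CPM in uninjured libraries (adjusted p = 0.00210). Which cells held the Il7r RNA was not tested.

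The killing tools Gzma and Prf1 had the largest falls of the NK class. Gzma, granzyme A, had 2.27, 0.977 and 1.86 CPM in injured and 60.8, 148 and 192 CPM in uninjured libraries, a log2 fold change of -6.27 (SE 0.50, adjusted p = 1.44e-07). Prf1, perforin, had 2.52, 0 and 0 CPM in injured and 23.4, 55.6 and 70.4 CPM in uninjured libraries, and its call was lost with DESeq2 (adjusted p = 0.0597). Nkg7, a granule protein needed for killing, had 4.28, 1.46 and 6.75 CPM in injured and 47.1, 116 and 118 CPM in uninjured libraries. The transcription factor Tbx21 (T-bet) had 0.504, 0.977 and 0.233 CPM in injured and 9.46, 13 and 19.7 CPM in uninjured libraries. Its relative Eomes had 2 counts in injured and 23 in uninjured libraries (2.13, 3.75 and 0.285 CPM), an uninjured to injured ratio of 12.7 with a counting interval of 3.14 to 111, and was not tested.

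The NK receptors fell by unequal amounts. Ncr1, the NK activating receptor NKp46, had 2.01, 0 and 0 CPM in injured and 22.7, 28.0 and 26.8 CPM in uninjured libraries, within a factor of 1.23 of each other. Klrb1c, which encodes NK1.1 in C57BL/6 mice, had 2.27, 2.93 and 0.233 CPM in injured and 22.7, 40.1 and 35.6 CPM in uninjured libraries. Il2rb, a receptor chain shared by IL-2 and IL-15, had 2.01, 3.42 and 6.98 CPM in injured and 32.6, 28.5 and 56.2 CPM in uninjured libraries. These kept 2.60%, 5.52% and 10.6% of their mean level. More was left of the lectin-like receptors Klrk1 (NKG2D, activating) and Klrd1 (CD94, partner of the NKG2 chains). Klrk1 had 9.31, 23.4 and 10.7 CPM in injured and 66.0, 85.9 and 67.9 CPM in uninjured libraries, leaving 19.8%. Klrd1 had 8.56, 17.8 and 11.2 CPM in injured and 36.9, 53.6 and 32.8 CPM in uninjured libraries, leaving 30.5%. In both, injured replicate 2 was the highest of the injured libraries, and the groups did not overlap. The log2 fold change of Klrd1, -1.71 (SE 0.52, adjusted p = 0.0185), was the smallest of the 34 members that fell. Its call was lost with DESeq2 (adjusted p = 0.608) and without uninjured replicate 2 (0.0954), injured replicate 1 (0.0851) or injured replicate 3 (0.0668), and that of Klrk1 was lost with DESeq2 (0.145).

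**Figure D2:**
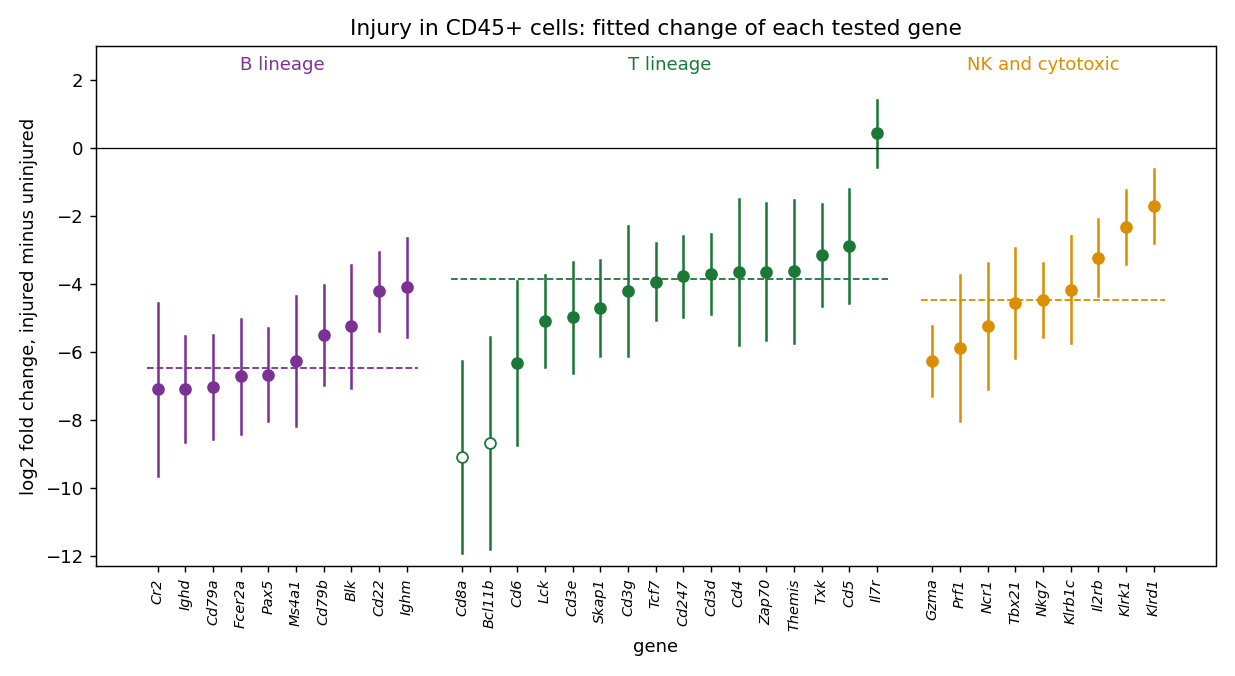
Fitted log2 fold change (injured minus uninjured CD45+ cells) of the 35 tested members with approximate 95% intervals, grouped by class. Dashed lines mark the class medians and open circles the genes with 0 counts after injury. The dashed lines stand at -6.48 for B, -3.86 for T and -4.48 for NK genes, and the interval of Il7r alone crosses 0.

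Summed over each class, B genes fell more than T or NK genes. The summed level of the 10 B genes was 115, 127 and 203 CPM in injured and 2366, 3886 and 6690 CPM in uninjured libraries, that of the 17 T genes 51.9, 45.4 and 57.7 CPM against 233, 378 and 603 CPM, and that of the 10 NK genes 34.0, 51.3 and 37.9 CPM against 324, 572 and 620 CPM. The B sum was 29.0-fold lower after injury (11.7 to 58.0 over the 9 pairs of an injured and an uninjured library), the T sum 7.83-fold lower (4.04 to 13.3) and the NK sum 12.3-fold lower (6.31 to 18.2). The lower end of the B range lies inside the ranges of T and NK, so the ratio between classes was also taken within each library, where the scaling of the library cancels. The B to T ratio of summed CPM was 2.22, 2.81 and 3.52 in injured and 10.1, 10.3 and 11.1 in uninjured libraries, and the B to NK ratio was 3.39, 2.49 and 5.36 in injured and 7.31, 6.80 and 10.8 in uninjured libraries. Neither ratio overlapped between the groups. No p is given for these sums, and the absolute size of a ratio depends on gene lengths, so that the comparison of groups is what it shows.

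T and NK genes could not be ranked. The T to NK ratio was 1.53, 0.886 and 1.52 in injured and 0.720, 0.661 and 0.972 in uninjured libraries, and the groups overlapped. Single members with much RNA left weighed on the size of the class falls. Without Ighm the B sum was 74.1-fold lower, and without Il7r the T sum was 19.0-fold lower. Without Klrd1 and Klrk1 the NK sum was 27.8-fold lower. With all of these left out, the order of the classes stayed the same. Leaving out Il7r alone put the T fall past that of all NK members (12.3-fold). With classes narrowed to genes that other lymphocytes do not commonly use, the sums were 75.8-fold lower for 8 B genes, 20.2-fold for 8 T genes and 16.1-fold for 6 NK genes, which turns the order of T and NK round. The narrowed B to T ratio was 2.19, 5.62 and 5.11 in injured and 11.3, 14.7 and 17.3 in uninjured libraries, and the B to NK ratio was 0.958, 0.811 and 4.04 against 5.10, 5.97 and 10.9, while the T to NK ratio was 0.437, 0.144 and 0.789 against 0.450, 0.407 and 0.626. The median over all 37 members, with the genes at 0 placed at their limit, was 91.3-fold lower for B, 14.2-fold for T and 20.2-fold for NK genes. A low uninjured level caps the fall that can be seen. The 2 genes at their limit, the T genes Cd8a and Bcl11b, could show no more than 55.9- and 42.0-fold, less than the B median. The T median fell on Cd247, which had 22 counts in injured libraries and shares 60.3% of its exon bases with other genes. How far low levels limited the T fall was not tested.

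**Figure D3:**
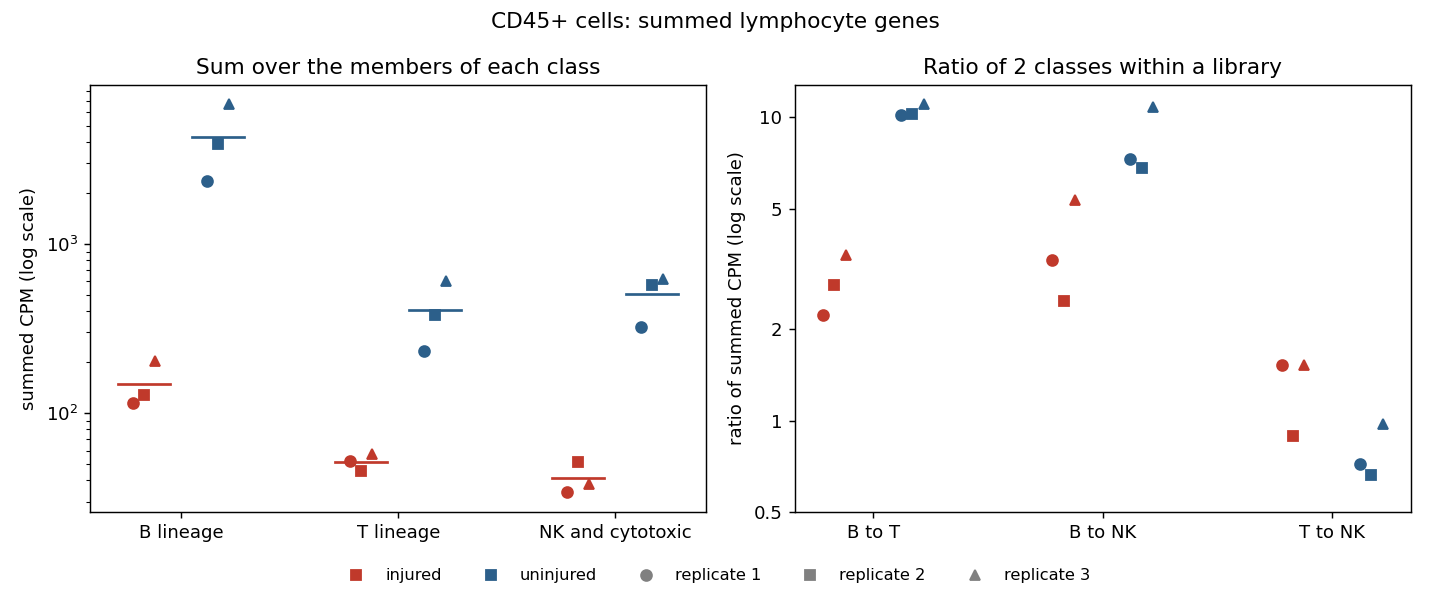
Left, summed CPM of each class in the 6 CD45+ libraries, with bars at the mean of 3; right, the ratio of summed CPM between classes in the same library, both on log axes with injured left of uninjured. The B to T ratio lies between 2.22 and 3.52 in injured and between 10.1 and 11.1 in uninjured libraries, while the T to NK ratios overlap.

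Of the 3 lymphocyte classes, B genes differed most between the resting libraries. The highest of the 3 uninjured CD45+ libraries was replicate 3 for 10 of 10 B genes, 17 of 17 T genes and 5 of 10 NK genes, and replicate 2 for the other 5 NK genes. Replicate 3 was the highest for 35.7% of the 10441 tested genes with a mean of at least 5 CPM there. The median ratio of the highest to the lowest uninjured library was 4.0 for B, 2.73 for T and 2.02 for NK genes, against 1.42 for those 10441 genes. In the same library, neutrophil genes were highest (3714 CPM summed, against 2296 and 1376) and genes of mast cells lowest (22.8 CPM, against 1907 and 484). After injury, replicate 3 was the highest library for 7 of 10 B genes, and its summed stromal level was 280 CPM, against 64.0 and 75.4 CPM in replicates 1 and 2. The part of those cells in the lymphocyte values was not tested. Without both CD45+ libraries numbered 3, 30 members fell, among them all 10 B genes.

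Most listed genes that work with the members fell with them. Of 15 further genes of B cell receptor signalling, 11 fell and 1 rose. Over all genes tested, the shares were 18.5% and 15.9%. The lists here and below were chosen with earlier results known, so these shares are for scale only. Blnk, the adaptor of the receptor, had 40.1 ± 8.48 CPM in injured and 244 ± 17.4 CPM in uninjured cells, Bank1 8.45 ± 2.12 and 196 ± 78.9 CPM, and Ralgps2 8.83 ± 1.55 and 80.4 ± 49.1 CPM (SD, n = 3 each). Lyn, a kinase of B and myeloid cells, rose to 664 ± 73.0 CPM in injured cells, against 467 ± 63.9 CPM in uninjured cells (log2 fold change 0.51, adjusted p = 0.0248), and Syk, Btk and Plcg2, also used by myeloid cells and named here after their values were seen, did not pass, with log2 fold changes of -0.21, -0.21 and 0.04. Of 15 tested genes of T cell receptor signalling and T cell surface, 13 fell, with Lef1 at 0.818 ± 0.618 CPM in injured and 31.6 ± 11.4 CPM in uninjured cells. Lcp2, the adaptor SLP-76, rose to 292 ± 47.2 CPM in injured cells, against 173 ± 16.4 CPM in uninjured cells (log2 fold change 0.76, adjusted p = 0.0381). Icos, a costimulatory receptor of T cells, did not pass (adjusted p = 0.0984). Of 11 tested further NK and cytotoxic genes, 9 fell and 0 rose, and the lectin-like receptor genes Klri2 and Klrb1f, named with Icos after their values were seen, did not pass (adjusted p = 0.0630 and 0.246). Ctsw, a protease of cytotoxic cells, had 3.81 ± 0.623 CPM in injured and 52.1 ± 21.0 CPM in uninjured cells, and the NK receptor gene Klra4 had 0 counts in injured and 13.9 ± 3.01 CPM in uninjured cells.

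All 7 tested constant regions of the antigen receptors fell. The kappa light chain Igkc had 0, 0.488 and 14.9 CPM in injured and 300, 676 and 1319 CPM in uninjured libraries, and the T cell receptor gene Trbc2 had 1.01, 0.244 and 2.79 CPM in injured and 19.2, 28.5 and 38.5 CPM in uninjured libraries. Both were highest in replicate 3 of each group. Of 12 receptors that guide lymphocytes between blood and tissue, 8 fell and 0 rose. S1pr1, through which lymphocytes leave lymphoid organs, had 18.2 ± 6.26 CPM in injured and 127 ± 21.7 CPM in uninjured cells (adjusted p = 5.19e-08), and Cxcr5, which guides B cells into follicles, had 4.80 ± 2.63 CPM in injured and 114 ± 73.0 CPM in uninjured cells (adjusted p = 2.06e-05). Of 6 tested plasma cell genes, Mzb1 and Tnfrsf17 fell, while Xbp1 and Sdc1, which are not limited to plasma cells, rose. Xbp1 had 722 ± 68.9 CPM in injured and 306 ± 14.6 CPM in uninjured cells. Of 11 tested signals that keep or attract lymphocytes, 4 fell, among them Tnfsf13b, which encodes the B cell survival factor BAFF, with 4.56 ± 1.4 CPM in injured and 24.6 ± 2.86 CPM in uninjured cells, and 1 rose, the T cell attractant Cxcl10, with 33.8 ± 2.91 CPM in injured and 8.58 ± 3.20 CPM in uninjured cells.

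Genes of other leukocytes moved as well in the same libraries. Of the genes tested per list, 6 of 8 neutrophil and 6 of 10 inflammatory monocyte genes rose and 0 fell, while 9 of 11 resident macrophage, 8 of 10 conventional dendritic cell and 3 of 6 plasmacytoid dendritic cell genes fell and 0 rose. The summed neutrophil level was 7150 to 10889 CPM in injured and 1376 to 3714 CPM in uninjured libraries, and the summed inflammatory monocyte level was 6207 to 6862 CPM in injured and 1334 to 2068 CPM in uninjured libraries. Because CPM are shares, a rise of 1 kind of cell lowers the share of the others. Divided by the summed leukocyte genes of the same library, the log2 ratio of the class sums (injured over uninjured) was -5.15 for B, -3.26 for T and -3.94 for NK genes, beside -4.86, -2.97 and -3.62 in CPM. The summed leukocyte genes themselves had a log2 ratio of 0.32 and count leukocytes of every kind. The division therefore does not take out the lowering of shares.

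Outside the CD45+ gate the members were rare, with named exceptions. In uninjured muscle 34 of the 35 tested members were higher in CD45+ cells than in each of CD31+ cells, MSC and MuSC, a pattern of 13.7% of all genes tested. In injured muscle 12 members were, 2 B genes (Ighm and Cd22), 4 T genes (Cd3d, Cd5, Txk and Il7r) and 6 NK genes, against 15.4% of all genes. A mean below 1 CPM was found for 27 of 37 members in injured and 29 in uninjured CD31+ cells, for 37 in injured and 35 in uninjured MSC, and for 35 in injured and 32 in uninjured MuSC. The members were listed as lymphocyte genes, so being highest in uninjured CD45+ cells was close to given by their choice. It serves as a check of the gate, with the share of all genes for scale only. So few reads also left most members little room to pass a test of injury outside the gate.

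Cd247 was the member whose uninjured level was not highest in CD45+ cells. It had 31.1, 14.7 and 20.6 CPM in injured and 99.8, 120 and 75.8 CPM in uninjured CD31+ libraries, and it fell there (log2 fold change -2.15, SE 0.43, adjusted p = 6.59e-04). In uninjured muscle its level in CD45+ cells was below that in CD31+ cells, a difference of -2.0 on the log2 scale (CD45+ minus CD31+, adjusted p = 5.12e-04). Its partners were near 0 in CD31+ cells: Cd3d and Cd8a had 0 counts in all 6 libraries, and no library passed 0.791 CPM for Cd3e or 0.587 CPM for Cd3g. Cd247 (ENSMUSG00000005763, chr1:165788681-165877277, plus strand) shares 60.3% of its exon bases with Pou2f1 on the other strand and Gm16565 on its own. No strand is stated for the libraries. Gm16565, looked up after these values were seen, had 10.4, 6.96 and 10.6 CPM in injured and 59.3, 53.5 and 48.7 CPM in uninjured CD31+ libraries, and no library of the other populations passed 0.587 CPM. Pou2f1 had 18.6 ± 4.10 CPM in injured and 29.9 ± 3.26 CPM in uninjured CD31+ cells (SD, n = 3 each) and 9.15 to 30.9 CPM as group means elsewhere. The split of reads between these genes was not tested.

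Ighm was found outside the gate in opposite directions. In MSC it had 1.39, 0 and 0.179 CPM in injured and 85.2, 73.7 and 22.8 CPM in uninjured libraries, and fell with a log2 fold change of -6.65 (SE 1.06, adjusted p = 7.32e-05), with uninjured replicate 3 the lowest of its group and no overlap. Other B genes did not come with it: Cd79a had 0.334, 0.223 and 0.443 CPM, Cd79b 0.334, 0 and 0 CPM and Igkc 0.668, 0 and 0 CPM in those uninjured MSC libraries. Of the 35 members tested in MSC, 3 fell and 0 rose, against 23.6% and 18.3% of all genes. The others were Il2rb (0 counts in injured and 13 in uninjured libraries, adjusted p = 0.00399) and Bcl11b (0 and 8 counts, adjusted p = 0.0392), and the call for Bcl11b was lost in 5 of the 6 fits that left out an MSC library.

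In CD31+ cells Ighm had 15, 19.9 and 0 CPM in injured and 0.847, 0 and 0.294 CPM in uninjured libraries (log2 fold change 4.67, SE 1.43, adjusted p = 0.0245). Here some other B genes came with it in the same libraries: Cd79a had 5.67, 3.48 and 0.316 CPM, Cd79b 3.53, 6.38 and 0.474 CPM and Igkc 10.6, 8.12 and 0 CPM in injured replicates 1, 2 and 3. Injured replicate 3 held none or little of these 4 genes and lay at the low end of the uninjured range for Ighm. Other B members did not follow it: Cr2 had 0, 1.55 and 3.80 CPM, Pax5 0.153, 0.580 and 1.58 CPM and Fcer2a 2.15, 0 and 2.21 CPM in injured replicates 1, 2 and 3, highest where Ighm had 0 counts. The summed leukocyte level was 179 CPM in injured replicate 1 and 42.9 and 47.9 CPM in replicates 2 and 3, against 44.1 to 55.2 CPM in uninjured libraries, and the part of stray leukocytes was not tested. The call was lost in 5 of the 6 fits that left out a CD31+ library, with adjusted p of 0.0647 to 0.0873, and held without injured replicate 3 (7.98e-04). In all, 1 member rose in CD31+ cells and 2 fell, Cd247 and Tcf7 (1.23, 0.387 and 0.633 CPM in injured and 2.12, 2.81 and 3.23 CPM in uninjured libraries, adjusted p = 0.0478, lost in 5 of 6 such fits), against 14.1% and 9.3% of all genes.

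**Figure D4:**
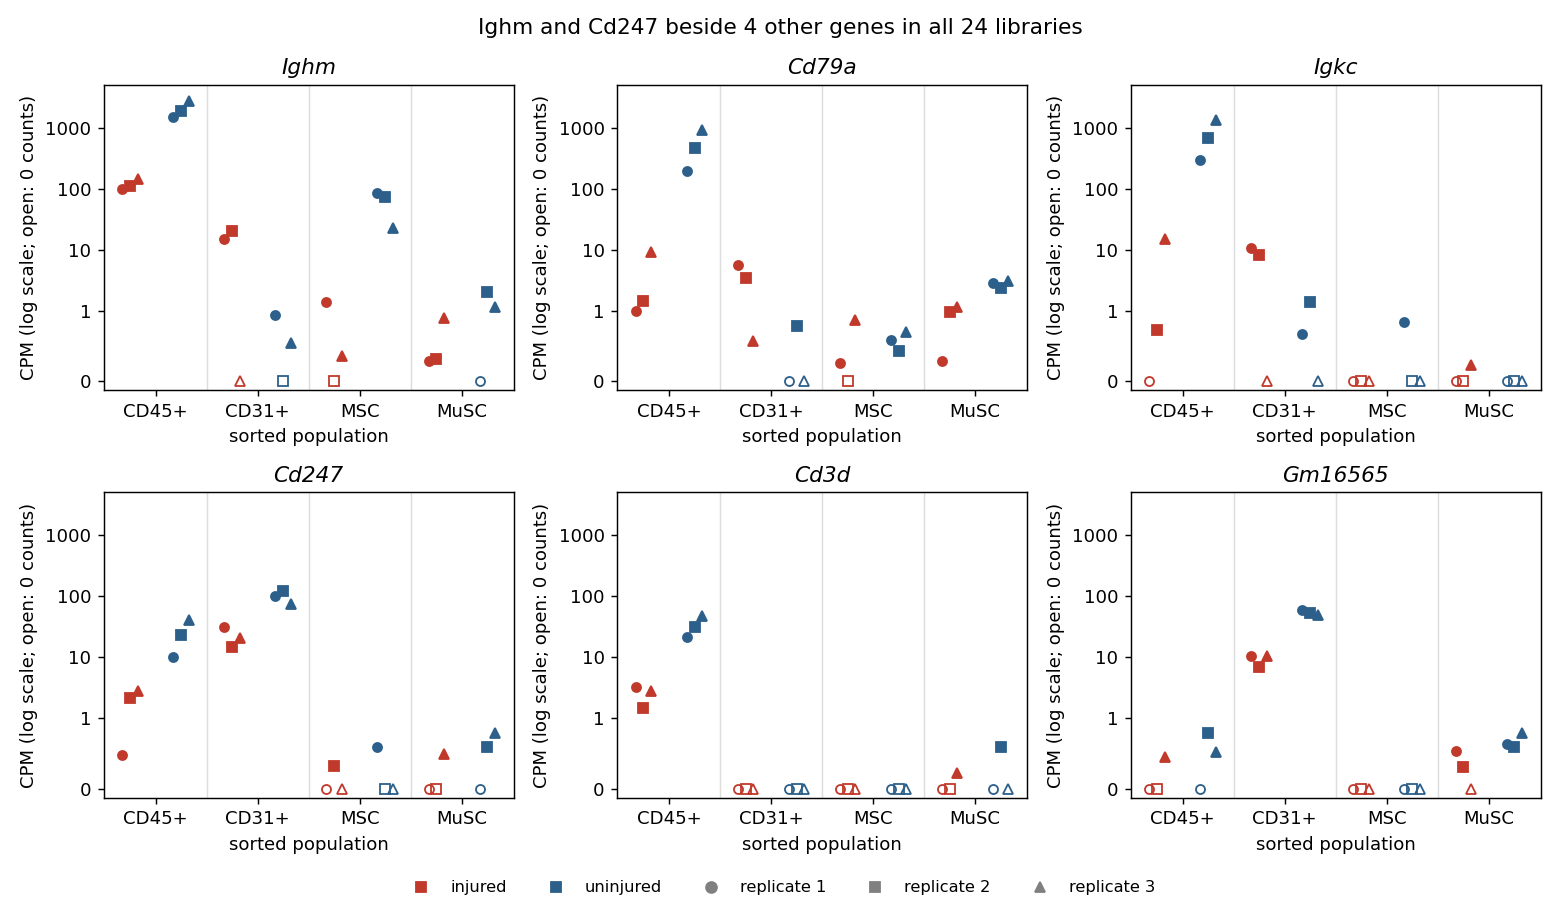
CPM on a log axis of Ighm and Cd247, each beside genes that come with them in lymphocytes or overlap them in the genome, in all 24 libraries, injured left of uninjured and open symbols for 0 counts. Ighm stands at 22.8 to 85.2 CPM in uninjured MSC where Cd79a and Igkc are below 1 CPM, and Cd247 and Gm16565 are both highest in uninjured CD31+ cells, where Cd3d is at 0.

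In MuSC 0 of 35 members passed in either direction, by edgeR or by DESeq2, against 38.9% of all genes, and 1 (Cd5, with 0 counts in injured and 4 in uninjured libraries) had an unadjusted p below 0.05. Of the 37 members, 16 had 0 counts in injured and 17 in uninjured MuSC, and 35 and 32 had means below 1 CPM. With so few reads most could hardly pass, so the tally cannot be compared with the share of all genes. Tcf7, which satellite cells use in Wnt signalling, had 5.63, 7.36 and 8.41 CPM in injured and 4.82, 3.04 and 2.74 CPM in uninjured MuSC libraries, the highest member level in injured MuSC. All injured libraries were above all uninjured ones, as for 25.5% of all genes, and the log2 fold change of 1.00 did not pass (adjusted p = 0.129). The change of Tcf7 in CD45+ cells differed from that in MuSC by -4.93 on the log2 scale (SE 0.75, adjusted p = 2.74e-05 for the difference).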

How the data were processed

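The deposited table holds the authors' unnormalized counts of reads for 52997 gene symbols in 24 libraries. The submitters' processing notes name STAR 2.5.4, featureCounts and mm10. How reads were counted, and on which annotation, is not given in the sources used here. Per the labels' protocols, libraries were made from 1000 twice-sorted cells, primed with oligo(dT), amplified by PCR and read as pairs of 25 bases, with no strand and no molecular identifiers stated, so intervals cover counting error only.

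Counts were analysed with edgeR 4.0.16 (R 4.3.3). Its filter over the 8 groups left 16263 genes. One quasi-likelihood model with TMM scaling and robust estimation had a mean per group (16 residual degrees of freedom, common biological coefficient of variation 0.224), and Benjamini-Hochberg adjustment ran over all genes tested, with a threshold of 0.05. SE of log2 fold changes were back-calculated from each fold change and its quasi-likelihood F statistic. The 95% intervals were built from these SE. Both are approximate, above all for genes with 0 or few counts in a group. Sums, ratios and medians over members carry no test. Alternatives were RLE scaling, no filter, DESeq2 1.42.0, a replicate block, CD45+ libraries alone and leaving out each library. Recovery was tested on simulated data. Gene positions are from GENCODE vM21 on GRCm38. The members, the classes and the lists of other genes were chosen with earlier results of these data known. All members were named; of other lists, up to 3 genes by smallest adjusted p and those that passed against the direction of their list. One gene of the B cell receptor signalling list is not reported here. The deviations of same-numbered libraries had correlations of -0.0238 to 0.00762 between the CD45+ groups. Over all pairs of groups they ran from -0.0920 to 0.133, and the 3 of 84 above 0.1 lay between injured populations. The numbers were not taken to pair samples. The labels call the libraries biological replicates without naming animals, so p-values cover only the spread between libraries, part of which may be technical.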

Additional observations from a re-analysis of the deposited data

Results flagged for a closer look

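The injury response of 12 member and population pairs, of 20 tested, differed between CD45+ cells and another population by a test of the difference itself (interaction contrast of the edgeR fit, adjusted p below 0.05 over 16263 genes). A pair was tested where the other population reached 1 CPM on average, injured or uninjured. Over all genes, the response in CD45+ cells differed from that in CD31+ cells for 17.1%, from MSC for 25.1% and from MuSC for 24.4%.

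The difference, CD45+ minus CD31+ response on the log2 scale, was -11.04 for Cd79a, -10.17 for Ighd, -9.00 for Ms4a1, -8.77 for Ighm, -8.38 for Cd79b, -6.85 for Fcer2a, -6.37 for Cr2 and -6.19 for Lck. These CD31+ levels were low: no CD31+ library held 10 CPM of any of these genes except Ighm. In injured CD31+ libraries Ighm, Cd79a, Cd79b and Ms4a1 stood mainly in replicates 1 and 2, while Cr2 had 0, 8 and 24 counts and Fcer2a 14, 0 and 14 counts in replicates 1, 2 and 3. Against MuSC the difference was -5.41 for Cr2, -5.17 for Cd79a, -4.93 for Tcf7 and -4.81 for Lck. The adjusted p was 0.0232 for Cr2 and 0.0296 for Cd79a, and both calls were lost in some settings. For Cd79a they were no filter on low counts (adjusted p = 0.0730) and leaving out CD45+ injured replicate 1 (0.0573) or 2 (0.0607) or MuSC injured replicate 2 (0.102) or 3 (0.191). For Cr2 they were leaving out CD45+ injured replicate 1 (0.0733) or 3 (0.0725), or both CD45+ libraries numbered 3 (0.123). Those for Tcf7 and Lck held in all 17 alternatives. Of all pairs, 10 to 13 differed with 1 library left out. Cd79a had 0.148, 0.960 and 1.16 CPM in injured and 2.89, 2.36 and 3.13 CPM in uninjured MuSC libraries. Of the 2 pairs tested against MSC, Ighm and Fcer2a, neither passed (adjusted p = 0.212 and 0.175). For Ighm, which fell in both populations, the difference was 2.55 (SE 1.4).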

How the results depend on the processing

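The count of members that fell in CD45+ cells was 34 with RLE scaling, without the filter and in the CD45+ libraries alone, 28 with DESeq2, and 32 to 34 with 1 library left out. All 10 B genes fell in each of these settings. Of the comparisons' summary values, 180 kept their direction and side or size and 12 moved. The number of members called in CD31+ cells ranged from 1 to 3 with 1 library left out. The log2 ratio of the class sums was -4.86 for B, -2.97 for T and -3.62 for NK genes. It moved to -6.24 for B and -4.34 for T genes in the narrowed classes, and to -6.48, -3.86 and -4.48 for B, T and NK genes as the median of fitted changes. In settings added after the data were seen it was -6.21 for B without Ighm, -4.25 for T without Il7r and -4.80 for NK without Klrd1 and Klrk1. With 1 library left out it ranged from -5.15 to -4.39 for B, -3.25 to -2.56 for T and -3.86 to -3.45 for NK genes. Among single genes 44 values lost their call and 0 reversed. With the replicate block 34 members still fell in CD45+ cells, and the calls for Tcf7 in CD31+ cells and Bcl11b in MSC were lost (adjusted p = 0.0595 and 0.0522). Depth limits Foxp3, Eomes and most members outside the CD45+ gate, whose levels lie near the count of 3 that a 0 allows.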
